A study of Mus musculus with 9 samples.

Results

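Dendritic cells (DCs) read the sugars and debris around them with C-type lectin receptors, and 10 genes of this kind were followed through early DC development in mouse bone marrow: Clec9a, Clec7a, Clec4b1, Clec12a, Clec4a2, Clec4a3, Clec4a4, Clec10a, Mgl2 and Cd209a. They were taken by name as lectins used to describe DCs, and all are reported whatever their values, but the set was drawn up with earlier results of these data known. All 10 had a microarray probe set that the probe table gives to a single gene symbol, and each had only 1 such probe set, among 19938 genes compared.

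RNA came from sorted bone marrow cells of mice with a Zbtb46-GFP reporter on one allele (heterozygous), in which green fluorescent protein marks cells that transcribe Zbtb46, a transcription factor of classical DCs and their committed precursors. There were 9 arrays, 3 per group. Common DC progenitors, or CDPs, were split by the reporter into a negative group (Zbtb46-neg CDPs) and a positive group (Zbtb46-pos CDPs), and the third group, pre-CD8 DCs, holds precursors of the lineage now called cDC1. All groups carried the same reporter allele and no treatment is named. The age and sex of the mice and the sort gates are not given in the labels, nor do they state how the replicates were obtained (mice, pools or sort days). Each p therefore measures the spread between the arrays, which may be technical. The series asks for expression signatures in developmental order, and the comparisons follow that order.

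A C-type lectin-like domain is the shared extracellular fold of this family, and many members bind carbohydrate with it. The tail inside the cell sets the outcome. Receptors with a hemITAM, or that pair with the Fc receptor gamma chain, can activate the kinase Syk. Some of them, such as the product of Clec7a, act from there through Card9 on the NF-kB pathway. Receptors with an ITIM instead recruit phosphatases such as those encoded by Ptpn6 and Inpp5d. Several members serve to tell DC subsets apart: Clec9a marks cDC1 and their precursors, Clec4a4 and the Mgl genes mark subsets of cDC2, and Cd209a is used for cDC2 and monocyte-derived DCs.

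Each value below is the log2 of a deposited RMA signal, and a mean is given ± SD with n = 3 arrays. The median over all probe sets and arrays was 6.82. A signal near or below it may be background, so a difference that starts or ends there may understate the change in transcript. Levels are compared between groups for the same gene and never between genes, since probes differ in brightness. "Rose" and "fell" are used where the adjusted p from limma was under 0.05, with Benjamini-Hochberg adjustment across the 19938 genes. In bulk samples such as these, fewer cells of a type and less RNA per cell cannot be told apart.

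Before the results, replicate 1 of both CDP groups has to be set apart. Xist, the X-inactivation RNA of female cells, read 5.59 in Zbtb46-neg CDP replicate 1 and 5.30 in Zbtb46-pos CDP replicate 1, against 11.85 to 12.29 in the other 7 arrays. The Y-linked gene Eif2s3y read 6.92 and 6.51 in the same 2 arrays and 3.63 to 3.78 elsewhere. Ngp, a neutrophil granule gene, was also high there, at 10.48 and 12.36 against 5.39 to 8.54. Counts of calls are given with and without these arrays, and so are single differences of several lectins. Array medians of the linear signal ran from 110.2 to 118.0. Precision is limited by having 3 arrays a group.

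The labels were checked against marker genes, with the 10 lectins left out of every list. Zbtb46 itself read 6.27, 6.92 and 6.41 in Zbtb46-neg CDPs, 7.50, 7.05 and 7.18 in Zbtb46-pos CDPs and 7.60, 7.39 and 7.53 in pre-CD8 DCs. The summed linear signal of 10 cDC1 markers was 6495 to 7690, 9694 to 13548 and 20170 to 21132 in the groups in that order. At or below the table median were 7 of the 10 in Zbtb46-neg CDPs, 5 in Zbtb46-pos CDPs and only Itgae in pre-CD8 DCs. Bright genes dominate such a sum. Irf8, the brightest of the list by group mean, passed in no comparison (adjusted p = 0.078 to 0.948, limma). Of the 10, 5 rose from Zbtb46-neg to Zbtb46-pos CDPs and 8 from there to pre-CD8 DCs, and none fell. Of all genes, 3.85% and 4.76% rose at these steps. The sum of 9 cDC2 markers was 7041 to 7633, 7065 to 7212 and 4344 to 4623, and that of 9 measured monocyte and macrophage markers 15781 to 17312, 13382 to 16656 and 13651 to 14071. The sum of 10 neutrophil markers was 27162 to 31789 in Zbtb46-neg CDPs, 32004, 7751 and 7718 in Zbtb46-pos CDPs and 980 to 1988 in pre-CD8 DCs, a list that includes granule genes of myeloid progenitors such as Mpo. The 6 progenitor markers summed to 12499 to 13533, 6317 to 7836 and 6642 to 6917. Of these 6, 5 fell and 0 rose at the earlier step. The sum hid a split at the later step, where 2 rose and 3 fell. Kit (log2 difference 0.90) and Flt3 (0.59) rose there, while Cd34 (-1.56), Myb (-1.08) and Cd93 (-2.90) fell. Of all genes, 10.6% fell at the earlier step and 1.86% at the later.

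Promoter windows of 4 of the lectins are shown because these genes had the largest changes over the whole span: Clec4b1, Cd209a and Clec9a upward and Clec7a downward. Each runs from 250 bases before to 50 bases after a RefSeq transcript start in GRCm38.p6, 5′ to 3′ on the gene's own strand, and 8 of the 10 lectins had such a window. Capitals mark every match, on either strand, to 6 short motifs of blood cell factors. These were GAGGAA (the Ets core as bound by PU.1), GAAANNGAA (the core of an interferon response element), GGAANNGAA (an Ets-IRF composite core), TGTGGT (Runx), TGANTCA (AP-1) and TTGCNNAA (C/EBP), where N is any base.
Clec4b1, chr6:123049712-123050011, plus strand: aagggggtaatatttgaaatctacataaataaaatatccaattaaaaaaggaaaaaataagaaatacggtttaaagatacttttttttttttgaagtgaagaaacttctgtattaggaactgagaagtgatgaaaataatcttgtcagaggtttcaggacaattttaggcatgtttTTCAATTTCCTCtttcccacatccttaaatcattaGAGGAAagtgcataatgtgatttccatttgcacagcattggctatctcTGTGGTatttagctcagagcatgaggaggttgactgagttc
Cd209a, chr8:3748935-3749234, minus strand: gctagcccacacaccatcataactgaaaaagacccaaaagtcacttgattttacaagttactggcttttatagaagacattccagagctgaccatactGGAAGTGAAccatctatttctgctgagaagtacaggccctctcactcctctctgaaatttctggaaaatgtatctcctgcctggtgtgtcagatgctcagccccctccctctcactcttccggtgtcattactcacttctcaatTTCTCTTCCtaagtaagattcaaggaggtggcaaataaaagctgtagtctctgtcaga
Clec9a, chr6:129408612-129408911, plus strand: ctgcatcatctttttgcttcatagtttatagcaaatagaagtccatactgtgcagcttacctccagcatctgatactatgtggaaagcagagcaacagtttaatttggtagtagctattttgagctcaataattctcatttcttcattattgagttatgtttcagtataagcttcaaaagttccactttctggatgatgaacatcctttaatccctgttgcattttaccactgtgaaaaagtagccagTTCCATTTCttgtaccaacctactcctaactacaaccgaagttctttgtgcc
Clec7a, chr6:129472730-129473029, minus strand: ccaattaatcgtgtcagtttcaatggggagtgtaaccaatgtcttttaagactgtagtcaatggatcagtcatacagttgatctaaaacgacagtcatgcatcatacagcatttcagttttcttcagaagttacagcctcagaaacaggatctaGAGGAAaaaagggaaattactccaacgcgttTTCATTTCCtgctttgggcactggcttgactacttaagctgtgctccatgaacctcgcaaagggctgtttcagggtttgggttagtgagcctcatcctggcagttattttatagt

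The Clec9a window held 1 match, TTCCATTTC, the reverse complement of the interferon response element core, whose first base lay 2 bases before the transcript start. Clec4b1 also held that motif, as TTCAATTTC from 74 bases before the start, where it overlaps a match of the Ets core. Ets-IRF composite matches were found in the windows of Cd209a, at 152 and 8 bases before the start, and of Clec7a, at 65 bases before it. Matches of this length are common. Of 32851 windows in the table, 28.3% held GAGGAA, 8.56% GAAANNGAA, 8.24% GGAANNGAA, 16.8% TGTGGT, 7.81% TGANTCA and 10.8% TTGCNNAA, against 4, 2, 2, 3, 2 and 1 of the 8 lectin windows. A match describes these letters only and is no evidence that a factor binds there.

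In the first step, from Zbtb46-neg to Zbtb46-pos CDPs, 3 of the 10 lectins rose (Cd209a, Clec4b1 and Clec4a2) and 2 fell (Clec7a and Clec12a), where 3.85% of all genes were called higher and 10.6% lower. In the second step, from Zbtb46-pos CDPs to pre-CD8 DCs, 4 rose (Clec4b1, Clec9a, Clec4a2 and Clec12a) and 2 fell (Clec10a and Clec7a), against 4.76% and 1.86% of all genes. Over the whole span 4 rose (Clec4b1, Cd209a, Clec9a and Clec4a2) and 4 fell (Clec7a, Clec10a, Mgl2 and Clec12a), against 6.43% and 9.23%. The median difference of the 10 was 0.02, 0.25 and 0.01 in the 3 comparisons, beside 0.04, -0.03 and 0.01 for all genes. Rises and falls thus lay side by side within the family. By the F test over the 3 groups 8 of the 10 differed, against 19.1% of all genes, and Clec4a3 and Clec4a4 were the lectins that did not pass (adjusted p = 0.82 and 0.756, limma). Without the 2 arrays low in Xist the counts were 3 higher and 4 lower in the first step, 5 and 3 in the second and 4 and 4 over the whole span. Calls over all genes also grew without them, from 768 higher and 2105 lower to 1737 and 2758 in the first step. In the second step they went from 949 and 370 to 2496 and 1570. Over the whole span they went from 1282 and 1841 to 1875 and 2146.

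**Figure D1:**
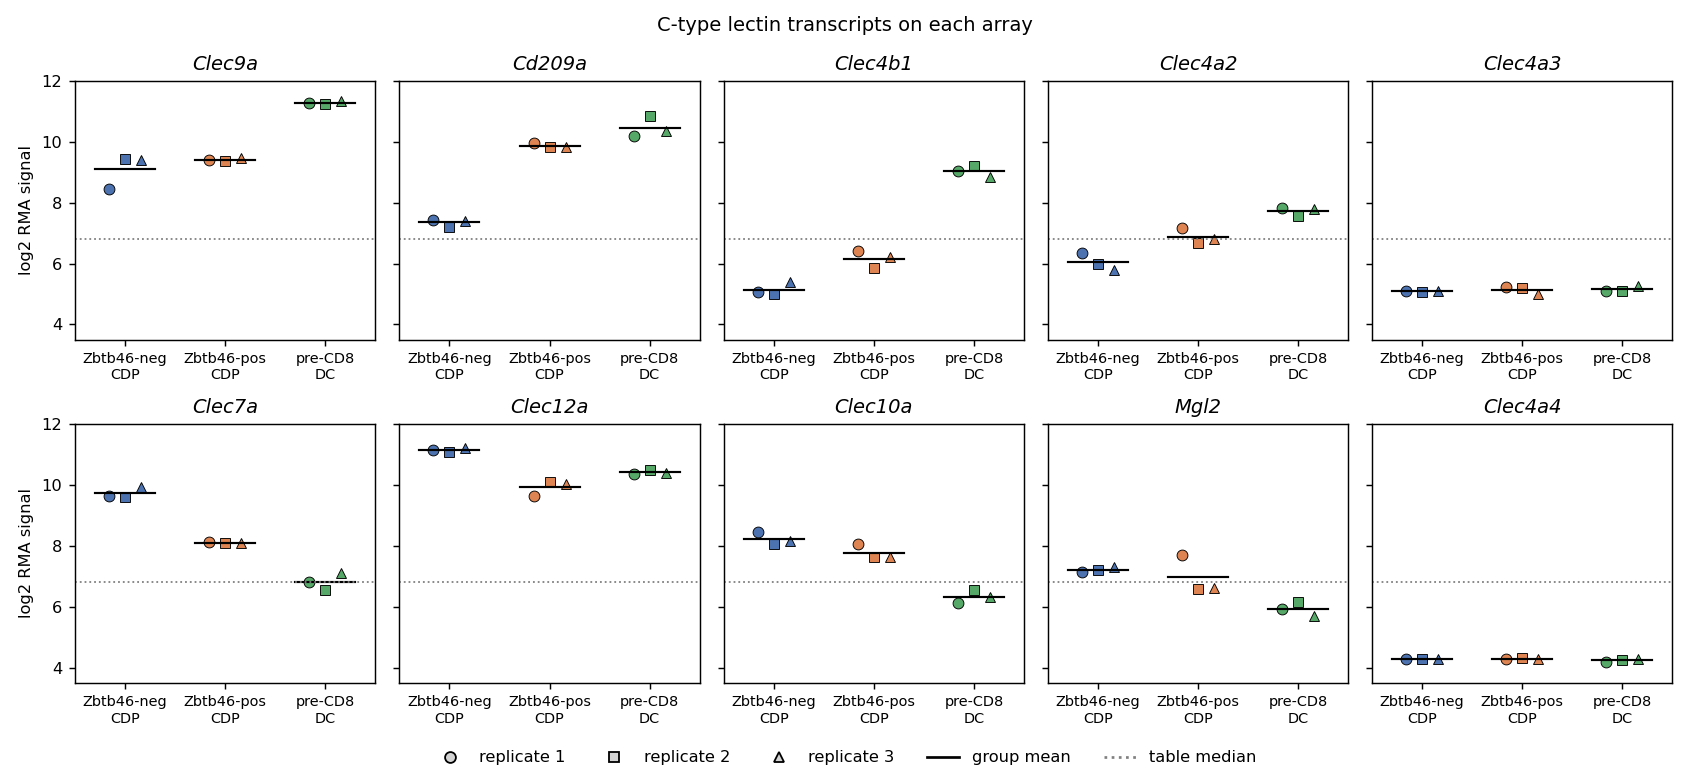
Log2 RMA signal (vertical axis) of the 10 lectins on each of the 9 arrays, by group (horizontal axis), with symbols for the replicate number, a bar for the group mean and a dotted line at the table median of 6.82. Clec9a, Cd209a, Clec4b1 and Clec4a2 are highest in pre-CD8 DCs, Clec7a, Clec10a and Mgl2 are lowest there, Clec12a is lowest in Zbtb46-pos CDPs, and Clec4a3 and Clec4a4 lie below the dotted line on every array.

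Among the activating receptors, Clec9a rose at the second step. This gene encodes DNGR-1, a hemITAM receptor that binds actin filaments exposed by dead cells and helps cDC1 to cross-present their antigens. Its signal was 8.46, 9.42 and 9.41 in Zbtb46-neg CDPs, 9.39, 9.37 and 9.48 in Zbtb46-pos CDPs and 11.28, 11.25 and 11.35 in pre-CD8 DCs. The CDP groups overlapped, and all pre-CD8 DC arrays lay above all CDP arrays. Zbtb46-neg CDP replicate 1 was the lowest array by a wide margin. The first-step difference of 0.32 (SE 0.223) did not pass (adjusted p = 0.375, limma), and without that array it was -4.3e-03 (adjusted p = 0.982). The second-step rise was 3.68-fold (log2 difference 1.88, adjusted p = 0.00142), and that from Zbtb46-neg CDPs was 4.58-fold (2.19, adjusted p = 0.000155). All 9 arrays were above the table median, those of reporter-negative cells included. Without the 2 low-Xist arrays the rise was 1.87 in both comparisons.

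Clec7a ran the other way. It encodes Dectin-1, the beta-glucan receptor of myeloid cells for fungal walls, which also signals through a hemITAM. The arrays read 9.64, 9.60 and 9.95 in Zbtb46-neg CDPs, then 8.12, 8.11 and 8.11 in Zbtb46-pos CDPs, and 6.80, 6.54 and 7.11 in pre-CD8 DCs. No groups overlapped, and the Zbtb46-pos CDP arrays had an SD of only 0.01. Clec7a fell 3.07-fold in the first step (-1.62, SE 0.144, adjusted p = 0.000197), 2.45-fold in the second (-1.29, adjusted p = 0.00101) and 7.53-fold in all (-2.91, adjusted p = 2.03e-06). Of the pre-CD8 DC arrays, 1 of 3 was still above the table median, so the last values may be near background and the full fall larger than measured. The monocyte and macrophage markers, cells in which Dectin-1 is abundant, had 4 of 9 lower and 2 higher in each step. Of all genes, 10.6% fell and 3.85% rose at the first step, and 1.86% fell and 4.76% rose at the second. Among the markers, Csf1r, the receptor for a macrophage growth factor, fell by 0.91 and then fell by 2.74 on the log2 scale. Ccr2, a monocyte chemokine receptor gene, rose by 0.69 and 0.65, whereas Fn1 rose by 1.45 and then fell by 2.79. Of the 10 neutrophil markers, 4 fell over the whole span, against 9.23% of all genes. They were the primary granule genes Mpo, Elane, Prtn3 and Ctsg, which myeloid progenitors also express. The other 6, among them Ngp and S100a9, passed in no comparison (whole-span adjusted p = 0.89 to 0.985). The part of monocyte or granule gene expression in the fall of Clec7a was not tested.

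Clec4b1 had the largest rise of the 10. It encodes Dcar, an activating receptor of the Dcir family that works through the Fc receptor gamma chain. In Zbtb46-neg CDPs the signal was 5.05, 5.01 and 5.38, in Zbtb46-pos CDPs it was 6.42, 5.84 and 6.20, and in pre-CD8 DCs 9.04, 9.20 and 8.86. The groups were fully separate at both steps. The first rise was 2.01-fold (1.01, SE 0.162, adjusted p = 0.00369) and lay wholly below the table median. Without the 2 arrays low in Xist it was 0.83 (adjusted p = 0.0141, limma). The second was 7.37-fold (2.88, SE 0.162, adjusted p = 1.65e-05), and over the whole span the signal rose 14.8-fold (3.89, adjusted p = 7.49e-07). Since all 6 CDP arrays were below the table median, the true rise may be larger.

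Of the inhibitory receptors, Clec12a was the only lectin of the 10 that was called in opposite directions at the successive steps. Its product binds uric acid crystals and carries an ITIM that dampens myeloid activation. The readings were 11.14, 11.09 and 11.22 in Zbtb46-neg CDPs, 9.63, 10.11 and 10.05 in Zbtb46-pos CDPs, and 10.37, 10.50 and 10.39 in pre-CD8 DCs. The Zbtb46-pos CDP arrays were the 3 lowest, and every array of the 9 was far above the table median. Clec12a fell 2.32-fold in the first step (-1.22, SE 0.123, adjusted p = 0.000344) and was 1.65-fold lower in pre-CD8 DCs than in Zbtb46-neg CDPs (-0.73, adjusted p = 0.00327). The rise of 1.41-fold between (0.49, SE 0.123) passed narrowly (adjusted p = 0.0476). That call was lost with quantile normalization (0.39, adjusted p = 0.192), with an intensity trend and robust moderation (0.0579), with only the 2 groups in the fit (0.121), and without any 1 of 7 of the 9 arrays (0.0645 to 0.157). Of single arrays, only leaving out Zbtb46-pos CDP replicate 1 or 2 kept it. Without the 2 arrays low in Xist the first-step difference was -1.07 and the second 0.34 (adjusted p = 0.000225 and 0.0182, limma).

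Clec4a2 encodes Dcir1, the broadly myeloid ITIM receptor of the Dcir family. It read 6.33, 5.98 and 5.80 in Zbtb46-neg CDPs, 7.18, 6.67 and 6.79 in Zbtb46-pos CDPs, and 7.81, 7.56 and 7.78 in pre-CD8 DCs, with no overlap between groups. With all arrays the measured steps were alike: 1.79-fold in the first (0.84, SE 0.166, adjusted p = 0.00955) and 1.78-fold in the second (0.84, SE 0.166, adjusted p = 0.0189). They made 3.20-fold in all (1.68, adjusted p = 0.000131). Without the 2 arrays low in Xist the steps were 0.84 and 0.99. The second call was lost without Zbtb46-pos CDP replicate 2 or 3 or pre-CD8 DC replicate 1 or 3 (adjusted p = 0.0627 to 0.0818). No Zbtb46-neg CDP array and 1 Zbtb46-pos CDP array was above the table median, so the first step may also be understated.

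Neither of the remaining Dcir genes gave a signal above the table median on any array. Clec4a4 encodes Dcir2, an ITIM receptor that marks a cDC2 subset, and it read 4.18 to 4.30 on the 9 arrays. Clec4a3, a paralogue, read 5.00 to 5.25. Their groups overlapped throughout, and no difference exceeded 0.07 in size (SE 0.081 for Clec4a3 and 0.061 for Clec4a4, adjusted p = 0.684 to 0.995). No change was detectable at these dim levels, which does not show that the transcripts are absent.

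**Figure D2:**
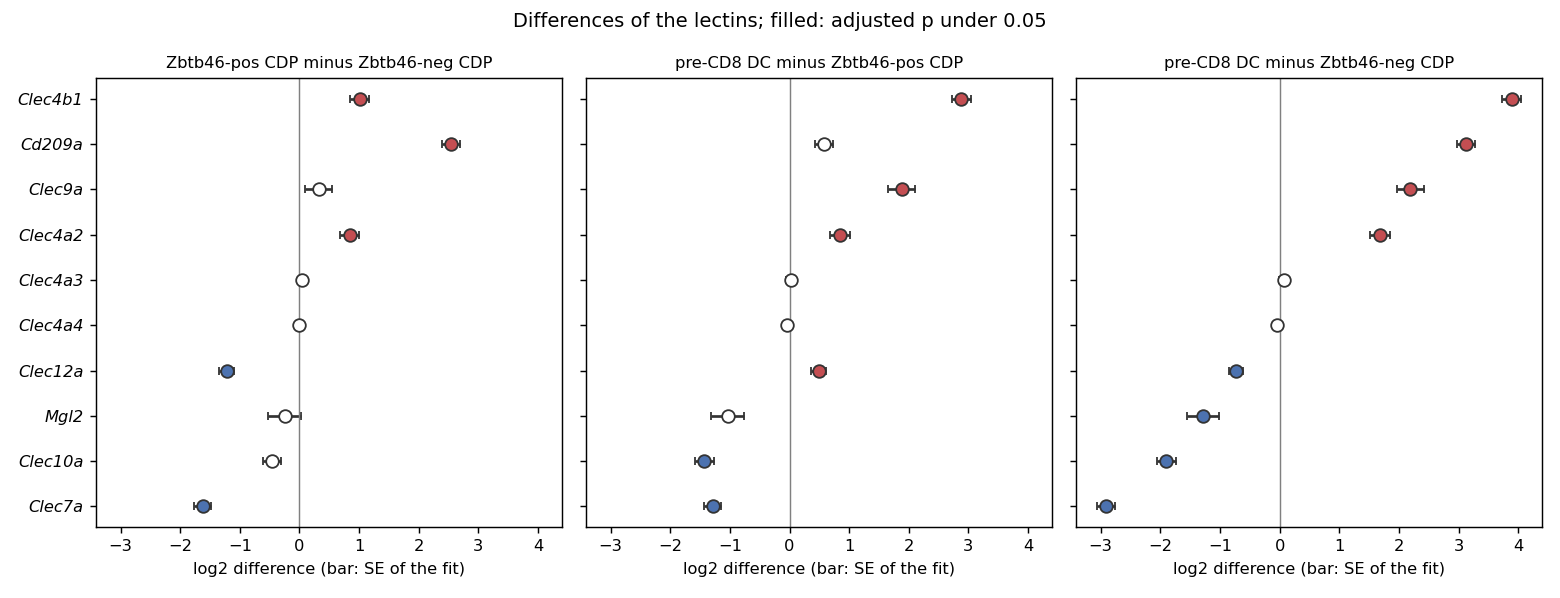
Log2 differences (horizontal axis) of the 10 lectins in the 3 comparisons, with bars for the SE of the limma fit and filled points where the adjusted p is under 0.05. Clec4b1 and Clec7a lie at the outer ends of the whole-span panel, at 3.89 and -2.91, and Clec12a lies left of 0 in the first panel and right of it in the second.

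The galactose-type lectins Clec10a and Mgl2 were highest in Zbtb46-neg CDPs by group mean and lowest in pre-CD8 DCs. Clec10a encodes Mgl1, which binds terminal galactose and Lewis structures, and Mgl2 its paralogue, which marks cDC2 of the skin and other tissues and also binds N-acetylgalactosamine. Clec10a read 8.44, 8.07 and 8.16 in Zbtb46-neg CDPs, 8.05, 7.62 and 7.62 in Zbtb46-pos CDPs, and 6.12, 6.54 and 6.32 in pre-CD8 DCs. The groups did not overlap, although the lowest Zbtb46-neg array (8.07) and the highest Zbtb46-pos array (8.05) nearly met. The first-step difference of -0.46 (SE 0.157) did not pass (adjusted p = 0.0841), and it passed without Zbtb46-pos CDP replicate 1 (-0.61, adjusted p = 0.0144), without the 2 arrays low in Xist (-0.50, adjusted p = 0.0299) and with array weights (-0.51, adjusted p = 0.0109). Clec10a then fell 2.70-fold in the second step (-1.43, adjusted p = 0.000905), to below the table median on all 3 arrays, and 3.72-fold in all (-1.90, adjusted p = 4.17e-05).

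For Mgl2 the calls at both steps changed with 1 array and with other settings. Its signal was 7.15, 7.20 and 7.31 in Zbtb46-neg CDPs, 7.71, 6.57 and 6.62 in Zbtb46-pos CDPs, and 5.93, 6.15 and 5.70 in pre-CD8 DCs. Zbtb46-pos CDP replicate 1, 1 of the 2 arrays low in Xist and the one with a neutrophil marker sum of 32004, was the highest of all 9, while the other Zbtb46-pos arrays lay below every Zbtb46-neg array. With all arrays the first-step difference was -0.25 (SE 0.271, adjusted p = 0.557) and the second -1.04 (adjusted p = 0.0555), neither of which passed. Without Zbtb46-pos CDP replicate 1 both passed, at -0.63 (adjusted p = 0.0073) and -0.67 (adjusted p = 0.00999). With all arrays kept, both also passed with array weights (-0.61, adjusted p = 0.0102, and -0.76, adjusted p = 0.011), and the second passed with the 30% dimmest genes left out (adjusted p = 0.0366). Over the whole span Mgl2 fell 2.45-fold (-1.29, SE 0.271, adjusted p = 0.0105), a call lost without pre-CD8 DC replicate 3 (-1.18, adjusted p = 0.0511). All pre-CD8 DC arrays were below the table median.

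Whether these paralogues changed by different amounts was tested within arrays, as log2 Clec10a minus log2 Mgl2. This difference averaged 1.0 ± 0.25 in Zbtb46-neg CDPs, 0.79 ± 0.39 in Zbtb46-pos CDPs and 0.40 ± 0.22 in pre-CD8 DCs, where the shift between groups is of interest and the level is not. The change of Clec10a minus that of Mgl2 was -0.21 in the first step, -0.39 in the second and -0.60 over the whole span (two-sided exact permutation p = 0.60, 0.30 and 0.10, adjusted over the 3 comparisons 0.60, 0.45 and 0.30). With 3 arrays against 3 the smallest p this permutation test can give is 0.10, the value found over the whole span, so it could not reach 0.05 and does not show that the paralogues changed alike. The first value changed sign without Zbtb46-pos CDP replicate 1 (0.02) and without the 2 arrays low in Xist (0.16). The genes are near-identical neighbours on chromosome 11, and how far their probes cross-hybridize was not examined.

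**Figure D3:**
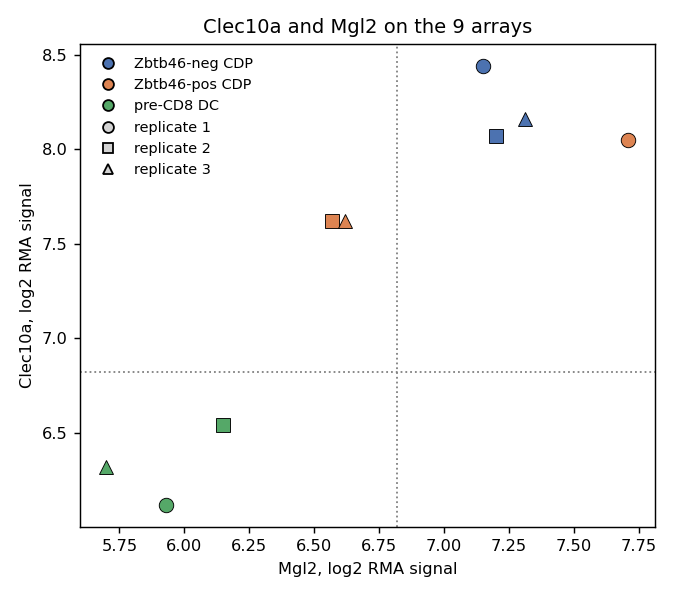
Log2 RMA signal of Mgl2 (horizontal axis) against Clec10a (vertical axis) on the 9 arrays, coloured by group and with symbols for the replicate number, with dotted lines at the table median of 6.82. The pre-CD8 DC arrays lie at the lower left, and Zbtb46-pos CDP replicate 1 lies apart from its group, at 7.71 and 8.05.

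Cd209a, the mouse homologue of human DC-SIGN, rose mostly at the first step. The signal was 7.42, 7.21 and 7.41 in Zbtb46-neg CDPs, 9.96, 9.84 and 9.84 in Zbtb46-pos CDPs, and 10.18, 10.85 and 10.37 in pre-CD8 DCs, and no groups overlapped. It rose 5.80-fold with the reporter (2.54, SE 0.153, adjusted p = 2.84e-05), the largest first-step change of the 10, and 8.69-fold in all (3.12, adjusted p = 1.94e-06). The further difference of 0.58 (SE 0.153, 1.50-fold) missed the threshold (adjusted p = 0.0569). It passed with the 30% dimmest genes left out (0.0407), with median centring (0.0403), and without Zbtb46-pos CDP replicate 1 (0.0471), pre-CD8 DC replicate 1 (0.0382) or the 2 arrays low in Xist (0.0485). Cd209a is used as a cDC2 and monocyte-derived DC gene, yet of the 9 cDC2 markers 3 fell and 2 rose at the first step, with Sirpa, a cDC2 surface receptor, down by 0.56 and S100a4 up by 1.40. None of the 9 rose at the second step and 3 fell. Of all genes, 10.6% fell and 3.85% rose at the first step, and 1.86% fell and 4.76% rose at the second.

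Related lectins outside the 10 were taken from a list of 38 receptors, 36 of them measured. In the first step 1 rose and 6 fell, in the second 3 rose and 4 fell, and over the whole span 9 rose and 9 fell. Of all genes, 3.85% rose and 10.6% fell in the first step and 4.76% and 1.86% in the second. Over the whole span the shares of all genes were 6.43% and 9.23%. Medians of the list were 0.07, -0.07 and -0.01 beside 0.04, -0.03 and 0.01 for all genes. Among the Cd209a paralogues, Cd209d was, like Cd209a, called at the first step and not at the second, with a rise of 1.48 (adjusted p = 0.000763) and then a difference of -0.23 that did not pass (adjusted p = 0.528). Cd209e had its called change later, a rise of 1.60 in the second step (adjusted p = 0.00122) after 0.59 in the first (adjusted p = 0.0663). The start was dim for both paralogues. These genes share sequence, and reads of one by the probes of another were not examined.

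Lectins of the natural killer receptor group also moved in both directions. Cd69, the early activation marker, fell from 10.21 to 7.21 at the first step (adjusted p = 2.1e-06) and to 5.78 at the second (adjusted p = 6.61e-05). Klrb1f, an activating Nkrp1 receptor, fell by 1.56 in the second step (adjusted p = 0.000332), while its relative Klrb1b, an inhibitory receptor, rose by 1.94 (adjusted p = 1.3e-05). Klrk1, which encodes the activating receptor NKG2D, and Klrd1, which encodes CD94, rose by 1.50 and 1.23 over the whole span (adjusted p = 0.00762 and 0.017). Clec5a, a Tyrobp-coupled myeloid receptor gene, fell by 0.91 and fell by 1.18 at the successive steps. Ly75, which encodes the endocytic receptor DEC-205 of cDC1, rose by 0.83 over the whole span (adjusted p = 0.0126).

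The Dcir and Dectin-1 clusters of lectin genes each held genes that rose and genes that fell over the whole span. In RefSeq's GRCm38.p6 annotation Clec4a3, Clec4a4, Clec4b1 and Clec4a2 follow each other in the Dcir cluster of chromosome 6, between Clec4a1 and Clec4b2. Over the whole span 4 of the 9 measured genes of this cluster rose, namely Clec4a1 (1.03), Clec4b1 (3.89), Clec4a2 (1.68) and Clec4b2 (0.51), and 1 fell, Clec4e (-0.72), the receptor Mincle for mycobacterial cord factor. Clec4a3 and Clec4a4, with differences of 0.07 and -0.05, lie between 2 of the genes that rose, Clec4a1 and Clec4b1. In the Dectin-1 cluster of the same chromosome Clec12a (-0.73), Clec9a (2.19) and Clec7a (-2.91) lie within a run of 9 measured lectin genes, of which 2 rose and 4 fell. The other genes that fell were Cd69 (-4.44), with the largest difference of the cluster, and Clec2d (-0.94). Clec1a, the gene between Clec9a and Clec7a, rose by 0.56. Of all genes, 6.43% rose and 9.23% fell over the whole span. Clec4a1, Clec4b2, Clec4e and Clec1a read below the table median on every array, so their calls rest on dim signals. The annotated span of Clec12b, whose difference was 0.10 (adjusted p = 0.746), overlaps that of Clec9a, and whether their probes overlap was not examined.

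**Figure D4:**
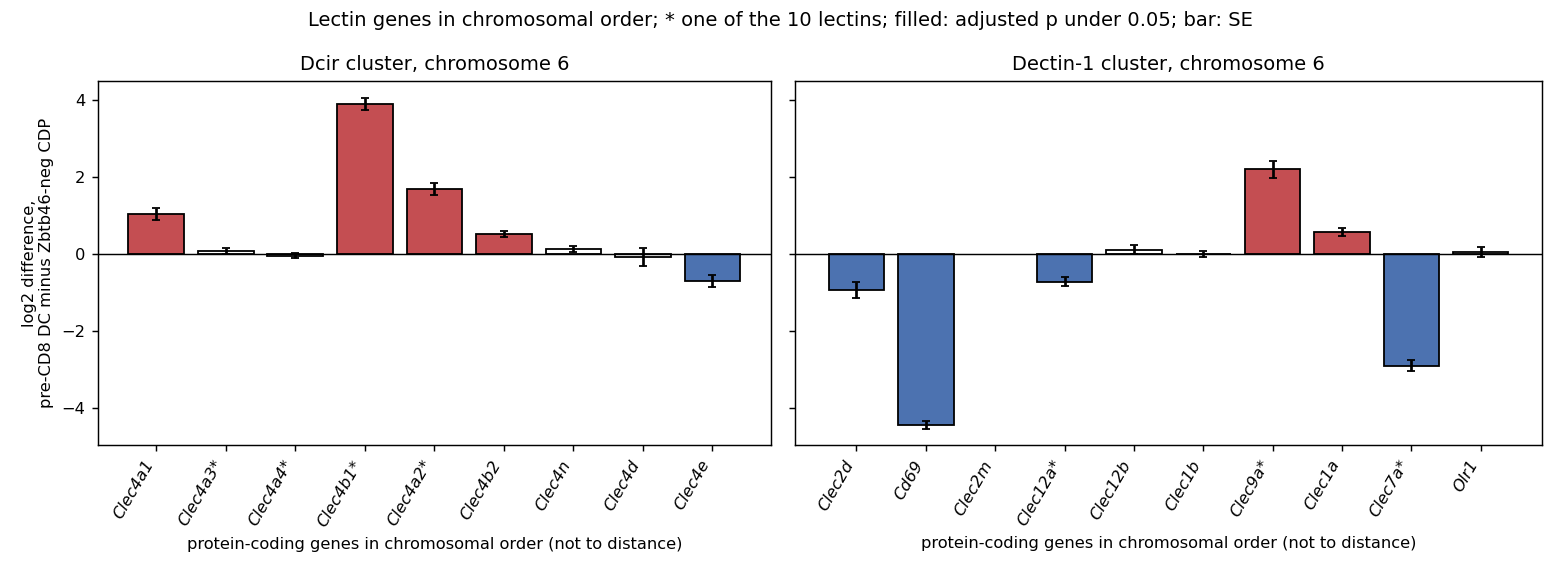
Log2 difference between pre-CD8 DCs and Zbtb46-neg CDPs (vertical axis, bars, with the SE of the limma fit) for protein-coding genes of the Dcir and Dectin-1 clusters of chromosome 6, in chromosomal order and not to distance. Filled bars passed the test, asterisks mark the 10 lectins, and Clec2m, with no bar, was not in a list. The rise of Clec9a (2.19) and the fall of Clec7a (-2.91) stand 2 places apart, and the longest bar is that of Cd69 (-4.44).

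The signalling partners of these receptors were taken from lists as well. Of 17 measured genes of the ITAM and hemITAM pathway, 2 rose and 3 fell in the first step and 1 rose and 1 fell in the second. Over the whole span 4 rose and 3 fell, and the medians were 0.11, 0.02 and 0.07. In the 3 comparisons 3.85%, 4.76% and 6.43% of all genes rose, and 10.6%, 1.86% and 9.23% fell. Plcg2, the phospholipase downstream of Syk, rose by 0.67 over the whole span (adjusted p = 0.00156), and Relb, an NF-kB subunit, rose by 0.63 (adjusted p = 0.00763). Card9, the adaptor that Clec7a signals need, fell by 0.75 (adjusted p = 0.00198), and the adaptor Lcp2, or SLP-76, fell by 0.93 and fell by 0.56 at the successive steps. Blnk fell by 0.99 in the first step and by 1.03 over the whole span (adjusted p = 0.00947 and 0.00615, limma). All Zbtb46-pos CDP and pre-CD8 DC arrays of Blnk were below the table median. For Syk and Fcer1g, which encodes the Fc receptor gamma chain, no comparison passed.

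Of the 8 genes for ITIM phosphatases and adaptors, 1 fell in each of the steps, and over the whole span 2 rose and 1 fell, with medians of 0.00, 0.05 and -0.02. The gene that fell was Dok3, an adaptor that restrains immunoreceptor signals, by 0.62, 0.94 and 1.56. Inpp5d, which encodes the phosphatase SHIP-1, rose by 0.51 and the kinase gene Csk by 0.52 over the whole span (adjusted p = 0.0273 and 0.0441). A further 11 genes were listed for the glycans that such lectins bind or that mask them. Of these, 3 fell in the first step, and 1 rose and 2 fell in the second. In the third comparison, over the whole span, 1 rose and 6 fell, and the medians were -0.24, -0.03 and -0.43. Over the whole span Mgat5, which branches N-glycans, fell by 1.92 and St3gal4, which adds sialic acid, rose by 0.74. C1galt1, which makes the core O-glycan, fell by 0.56 in the first step and rose by 0.46 in the second. Beside both lists, 3.85%, 4.76% and 6.43% of all genes rose in the 3 comparisons, and 10.6%, 1.86% and 9.23% fell.

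Genes whose signal ran most nearly in parallel with each lectin were found by Pearson's r over the 9 arrays, among 3316 or 3317 genes that differed by the F test and had a mean above the table median. With 3 groups of 3 arrays, r mostly reflects the group means, and it is given as a description. Clec9a was nearest to Gcsam (r = 0.982), Xcr1 (0.980), the chemokine receptor gene of cDC1, and Fgfr1 (0.975), and Gcsam and Xcr1 were also on the cDC1 marker list. For Clec4b1 the nearest were Cxcr3 (0.996), Ifi35 (0.995) and Fcrla (0.994), for Clec4a2 Plin2 (0.996), Gpr157 (0.993) and Lrrk2 (0.992), and for Cd209a Cd300lg (0.993), Serpinb10 (0.993) and Anxa6 (0.992). Clec7a ran closest to Cdca7 (0.991), Cst7 (0.990) and L3mbtl3 (0.989), and Clec12a to C1qbp (0.991), Kars (0.989) and Prdx2 (0.988). The nearest to Clec10a were Mapkapk3 (0.991), Igfbp4 (0.991) and Klrb1f (0.989), the last a lectin itself, and to Mgl2 Tfdp1 (0.986), Znrf1 (0.985) and Tecr (0.976). Between the lectins themselves the extremes were Clec9a with Clec4b1 (r = 0.96) on the rising side, Clec10a with Mgl2 (0.92) on the falling side, and Clec9a with Clec10a (-0.97) across them.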

How the data were processed

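Transcripts were measured on Affymetrix mouse whole-transcript arrays, 3 per sorted population, labelled from picogram to nanogram amounts of RNA per the labels' protocols. The deposited intensity values are RMA signals on a linear scale (7.454 to 20455.563) for 28853 probe sets, made with Affymetrix Expression Console and RMA per the submitters' processing notes, with versions and settings not given in the sources used here. Log2 was taken of them and no further scaling was applied. Of the probe sets, 21789 had 1 gene symbol, 1621 several and 5443 none in the probe table. Those with 1 symbol were kept, the brightest on average for the 999 genes with several, which left 19938 genes. Affymetrix gene arrays summarize probes along a transcript, so isoforms cannot be told apart, and near-identical paralogues may share signal.

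Group means were fitted to all 9 arrays with limma 3.58.1 (lmFit, eBayes) in R 4.3.3, and p-values were adjusted over all genes within each comparison. The limma fit was also run on simulated data, where only the comparison of Zbtb46-pos with Zbtb46-neg CDPs was checked. Clec10a and Mgl2 were set against each other by exact permutation over arrays. Permutations ran in scipy 1.17.1, tables in pandas 2.3.3 with numpy 2.4.6, and figures in matplotlib 3.10.9, all under Python 3.11.15. The members, lists and tests were chosen with earlier results of these data known. All 10 lectins are named whatever their values, other genes where they passed the test in a list or were among the 3 most alike by correlation. Genes named outside that rule are the list members Syk, Fcer1g, Tyrobp, Ptpn6, Irf8, Itgae, S100a9 and Clec12b, and Clec2m as a neighbour in a gene cluster. So are Xist, Eif2s3y, Ngp and Zbtb46, which check the arrays and the sort.

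Pairing by replicate number was checked on residuals. For numbers 1, 2 and 3 the correlation was 0.51, 0.42 and 0.36 for the negative with the positive CDP array, 0.11, 0.07 and 0.17 for the positive CDP with the pre-CD8 DC array, and -0.01, -0.03 and 0.03 for the negative CDP with the pre-CD8 DC array. Arrays of unlike number could correlate as well: negative CDP array 3 with positive CDP array 2 by 0.38 and negative CDP array 2 with positive CDP array 3 by 0.15, so pairing beyond number 1 is not clear. Every like-numbered CDP pair correlated, but the labels state no pairing and the numbers were not treated as pairs. Calls come from the unblocked fit unless another setting is named, and the permutation test did not pair arrays. A fit with the number as a block was run beside the unblocked one. Other alternatives were a filter on the 30% dimmest genes, the mean of probe sets, quantile normalization, median centring, robust moderation with an intensity trend, array weights, fits of only the groups compared, a threshold of 0.01, and each array left out in turn. Leaving out both arrays low in Xist was chosen after seeing the data.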

Additional observations from a re-analysis of the deposited data

How the results depend on the processing

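Of the 19 differences called among the 10 lectins, 16 kept their call and direction under every alternative that could be run, and 343 of 361 alternative fits of the 19 kept both. The calls lost in some were the second-step rises of Clec12a and Clec4a2 and the whole-span fall of Mgl2, as given with those genes. With the replicate number as a block no lectin's call changed, with Cd209a at 0.58 in the second step (adjusted p = 0.0815, limma) and Clec12a at 0.49 (adjusted p = 0.0403). Lectins called lower in the first step numbered 4 in place of 2 with array weights and without the 2 low-Xist arrays, and 2 to 4 with 1 array left out. Lectins called higher in the second step numbered 2 in place of 4 at a threshold of 0.01, and 2 to 5 with 1 array left out. Signs that turned were those of differences that passed no test. They were Clec4a3 in the first step with quantile normalization (-0.08) and in the second without Zbtb46-pos CDP replicate 3 (-0.05) or pre-CD8 DC replicate 3 (-0.03), and Clec4a4 in the first step with quantile normalization (-0.12) and without Zbtb46-neg CDP replicate 1 or 3 (-1.4e-04 each) or Zbtb46-pos CDP replicate 2 (-2.0e-03), and in the second with quantile normalization (0.02). Clec9a turned in the first step without Zbtb46-neg CDP replicate 1 (-4.3e-03). With 1 array left out these ran from -4.3e-03 to 0.48 for Clec9a and from -2.0e-03 to 2.8e-03 for Clec4a4 in the first step, and from -0.05 to 0.06 for Clec4a3 in the second. The difference between Clec10a and Mgl2 turned in the first step without the 2 low-Xist arrays (0.16) and ran from -0.34 to 0.02 with 1 array left out. The dim filter removed Clec4a3 and Clec4a4, so it gave no value for them. Over all genes quantile normalization moved the first-step split from 768 higher and 2105 lower to 1216 and 1572, and the second-step split from 949 and 370 to 749 and 654. Without Zbtb46-pos CDP replicate 1 the first-step calls numbered 1999 and 3269, with array weights 2772 and 3658, and without the 2 low-Xist arrays 1737 and 2758. The causes of these shifts were not tested. Signals near the table median limit what can be said of Clec4a3, Clec4a4, the CDP levels of Clec4b1 and Clec4a2 and the pre-CD8 DC levels of Clec7a, Clec10a and Mgl2. The same holds for the cluster genes Clec4a1, Clec4b2, Clec4e and Clec1a outside the 10 lectins. It also holds for Clec5a, Cd69, Klrb1b, Ly75, Cd209d, Cd209e and Blnk in the groups where they were dim.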
